A study of Mus musculus with 16 samples.

Results

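The 14-3-3 proteins are adaptor proteins that bind partner proteins at phosphorylated serines and threonines. The mouse genome encodes them in 7 genes, Ywhaz, Ywhab, Ywhae, Ywhag, Ywhah, Ywhaq and Sfn, and the rows of these 7 of 55404 genes were taken from the expression table of whole brains. The family was selected on the normalized values of Ywhaz, which were lower in Tecpr2 ki/ki brains, so the difference between genotypes is described for every member and was not tested. All 7 genes passed the filter on low values and were among the 23244 genes fitted.

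Untreated 5-month-old males were used, 8 of the genotype Tecpr2 ki/ki and 8 of the genotype wt/wt, and the whole brain of each gave 1 stranded library of total RNA depleted of ribosomal RNA. Both alleles of Tecpr2 ki/ki animals have the frameshift L1152fs, which was introduced into C57BL/6J zygotes with CRISPR/Cas9, while Tecpr2 is unedited in wt/wt animals. TECPR2 takes part in autophagy and in the traffic of vesicles to the lysosome, and the mice model a hereditary sensory and autonomic neuropathy. Whole brain mixes all regions and cell types, and fewer cells of a type cannot be told apart from less RNA per cell in these samples.

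A 14-3-3 protein works as a dimer of like or unlike members, and each partner in the dimer has a groove for a phosphorylated peptide. Binding can hide a localization signal, hold an enzyme in a given state or bring partners together, and the kinases and phosphatases that act on the partner decide when it is bound. The proteins were first isolated from brain, where they are abundant in the cytosol of neurons, and they appear in cerebrospinal fluid when neurons are damaged.

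The 7 genes are separate loci. In GRCm38, an earlier build than the GRCm39 to which the authors aligned, Ywhaz (zeta) lies at chr15:36770770-36796929 on the minus strand and Ywhab (beta) at chr2:163994960-164018588 on the plus strand. Ywhae (epsilon) lies at chr11:75732869-75765845 on the plus strand, and a long noncoding RNA, Gm26836, overlaps it on the other strand. Ywhag (gamma) lies at chr5:135908409-135934616 on the minus strand and Ywhah (eta) at chr5:33018816-33027966 on the plus strand. Ywhaq (theta) lies at chr12:21390071-21417637 on the minus strand, with the antisense gene Gm4419 on the other strand, and Tecpr2 lies on the same chromosome at chr12:110889264-110972394. Sfn (sigma) lies at chr4:133600556-133602168 on the minus strand and has 1 annotated transcript.

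The coding sequences were 735 to 765 bases long, and between any 2 members 59.8% to 79.0% of the aligned coding bases were identical. Ywhag and Ywhah were the most alike pair, and Ywhae and Sfn the least. Of the other members, Ywhab was nearest to Ywhaz, with 74.9% identical bases. The stretch shown here covers 39 coding bases, codons 51 to 63 of Ywhaz, and is shown because it holds the serine codon of the dimer interface and because it shows how reads from the members can be told apart. Each line is read 5′ to 3′ from GENCODE transcripts of GRCm38, with capitals at the bases that differ from Ywhaz.
Ywhaz: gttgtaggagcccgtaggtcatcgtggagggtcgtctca
Ywhab: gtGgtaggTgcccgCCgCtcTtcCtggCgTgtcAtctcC
Ywhae: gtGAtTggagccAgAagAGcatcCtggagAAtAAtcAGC
Ywhag: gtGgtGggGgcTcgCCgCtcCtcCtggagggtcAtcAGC
Ywhah: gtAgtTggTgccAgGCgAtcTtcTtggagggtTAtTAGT
Ywhaq: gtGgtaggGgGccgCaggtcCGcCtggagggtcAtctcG
Sfn: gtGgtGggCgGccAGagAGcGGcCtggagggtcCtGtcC

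Codon 58 of Ywhaz is TCG, which encodes a serine whose phosphorylation is known to weaken the dimer. The matching codon also encodes serine in Ywhab, Ywhae, Ywhag and Ywhah, and it is GCC, which encodes alanine, in Ywhaq and Sfn. In this stretch the other members differed from Ywhaz at 9 bases (Ywhaq) to 15 bases (Ywhae and Ywhah). Over the whole transcripts, no word of 31 bases of any member occurred in the transcripts of another member.

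The deposited values are normalized between libraries and rounded to whole numbers, and they are called normalized values here. They summed to 11964284 to 12252324 per mouse, and the reads on genes implied by steps between low values were 9.23 to 14.3 megareads in Tecpr2 ki/ki and 10.1 to 15.4 megareads in wt/wt mice. Tecpr2 served as a check of the labels, with 274 to 320 in Tecpr2 ki/ki and 928 to 1002 in wt/wt mice, so the libraries matched their labels. The listed markers of neurons, astrocytes, microglia and oligodendrocytes were all detected, and none was at 0 in all mice.

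Ywhaz was the family member with the highest value and was somewhat lower in Tecpr2 ki/ki brains. Its protein, 14-3-3 zeta, binds among others the apoptosis protein BAD. Normalized values had a lowest of 11925, a median of 12139 and a highest of 12618 in Tecpr2 ki/ki mice. In wt/wt mice the lowest was 12190, the median 12608 and the highest 12812. The 2 genotypes overlapped, with 5 Tecpr2 ki/ki mice below all wt/wt mice, 4 wt/wt mice above all Tecpr2 ki/ki mice, and 7 of 8 Tecpr2 ki/ki mice below the wt/wt median. The means were 12208 ± 223 and 12551 ± 224 (SD, n = 8), a difference of -2.73%, or -0.040 ± 0.013 (SE) on the scale of log2(value + 1).

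Ywhaq showed a difference of similar size at a lower level. Its protein, 14-3-3 theta, is abundant in T lymphocytes as well as in brain. Values ran from 2487 over a median of 2598 to 2682 in Tecpr2 ki/ki mice, and from 2584 over 2678 to 2776 in wt/wt mice. The ranges overlapped, but 3 Tecpr2 ki/ki mice lay below all wt/wt mice and 7 lay below the wt/wt median. The means were 2597 ± 67.5 and 2675 ± 60.2 (SD, n = 8), which gave a log2 difference of -0.043 ± 0.021 (SE).

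Ywhab, which encodes the beta protein and is the closest relative of Ywhaz in sequence, differed by less than its standard error. Its lowest, median and highest values were 3866, 3911 and 4024 in Tecpr2 ki/ki mice and 3764, 3992 and 4250 in wt/wt mice. All Tecpr2 ki/ki values lay within the wt/wt range. The log2 difference was -0.014 ± 0.019 (SE), and the coefficient of variation was 1.61% in Tecpr2 ki/ki and 3.9% in wt/wt mice.

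Ywhae encodes the epsilon protein, which binds the dynein regulator NDEL1 and is needed for neuronal migration. It was the only member of the 6 high ones whose mean was higher in Tecpr2 ki/ki mice. Values were 5666, 5831 and 6080 (lowest, median and highest) in Tecpr2 ki/ki and 5420, 5809 and 6053 in wt/wt mice, and the 2 sets overlapped, with 3 wt/wt mice below all Tecpr2 ki/ki mice. The log2 difference was 0.013 ± 0.018 (SE).

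Ywhag and Ywhah encode the gamma and eta proteins, which are enriched in neurons, and variants of human YWHAG cause epilepsy. Ywhag had 9891, 10466 and 11050 in Tecpr2 ki/ki mice and 10238, 10474 and 11021 in wt/wt mice, with a log2 difference of -0.017 ± 0.018 (SE). The medians were nearly equal, and the lowest and the highest value of Ywhag both came from Tecpr2 ki/ki mice. Ywhah had 5393, 5586 and 5936 in Tecpr2 ki/ki mice and 5421, 5660 and 5872 in wt/wt mice, with a log2 difference of -0.0097 ± 0.018 (SE). The groups overlapped almost completely for Ywhah as well.

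Sfn encodes the sigma protein, which is made mainly by epithelial cells, is induced by p53 and holds cells before mitosis. It was near the lower end of detection, with values of 11 to 25 (median 17.5) in Tecpr2 ki/ki and 11 to 20 (median 17) in wt/wt mice. The means were 18.5 ± 4.63 and 16.8 ± 3.54 (SD, n = 8), and the log2 difference of 0.13 ± 0.18 (SE) was smaller than its error. Of 13 listed markers of epithelial cells, 7 had a mean value under 10, and among the others the choroid plexus marker Ttr had 3645 to 4276 in Tecpr2 ki/ki and 4099 to 4726 in wt/wt mice. Of the 8 epithelial markers that could be fitted, 0 had an adjusted p under 0.1 (limma, Benjamini-Hochberg), beside 0.133% of all genes, and 2 were lower at an unadjusted p under 0.05, beside 3.01% of all genes.

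**Figure D1:**
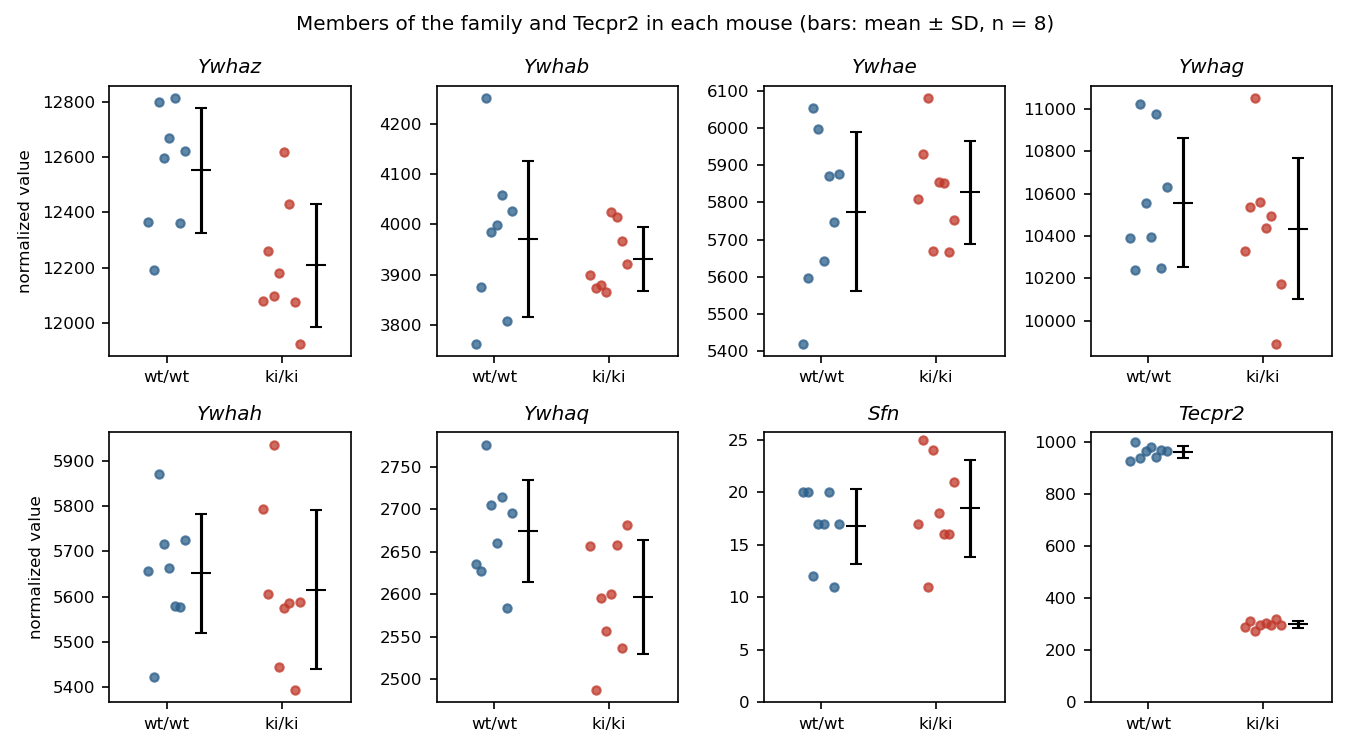
Normalized values (vertical axes, a scale of its own per gene, starting at 0 for Sfn and Tecpr2 and above 0 for the others) of the 7 family members and Tecpr2 in each of 8 wt/wt (blue) and 8 Tecpr2 ki/ki mice (red). Black marks give mean ± SD. Ywhaz ran from 11925 to 12618 in Tecpr2 ki/ki and from 12190 to 12812 in wt/wt mice, and only for Tecpr2 do the 2 groups of points stand apart.

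Because this contrast chose the family, no p or count of calls is given for its members. No member had genotypes without overlap, beside 0.086% of the 23244 genes fitted. Of the members, 5 had a log2 difference below 0 and 2 above, with a median of -0.014, while over all genes fitted the median was -0.00098. Among the 1066 genes with a mean value of at least 2000, 722 were below 0 and 344 above, with a median of -0.011.

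Summed over the family, the values were 39545 to 41651 (median 40653) in Tecpr2 ki/ki and 39970 to 42783 (median 41307) in wt/wt mice, or 0.338% of all values over the 16 mice. The sums overlapped, with 1 Tecpr2 ki/ki mouse below all wt/wt mice. As a part of the family's level per kilobase of exon, Ywhaz made up 26.9% to 28.4% in Tecpr2 ki/ki and 27.7% to 28.6% in wt/wt mice. Ywhaq made up 7.60% to 8.31% and 7.98% to 8.19%, respectively, and 5 Tecpr2 ki/ki mice lay below all wt/wt mice. The spread of this share of Ywhaq was wider in Tecpr2 ki/ki (SD 0.221 percentage points) than in wt/wt mice (SD 0.0699), a difference that was not tested. The SD of the share was also wider in Tecpr2 ki/ki mice for Ywhaz (0.476 against 0.301), Ywhag (0.371 against 0.207), Ywhah (0.311 against 0.235), Ywhab (0.232 against 0.197) and Sfn. For Ywhae it was narrower (0.253 against 0.408).

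Several members have processed pseudogenes, copies of their mRNA elsewhere in the genome, and reads from the copy and the gene can be hard to separate. Of the words of 31 bases in Ywhaz transcripts, 16.4% also occurred in other genes, compared with 26.1% for Ywhaq, 26.8% for Sfn and 11.9% for Ywhah. These words were spread over 233 other genes for Ywhaq and 99 for Sfn. For Ywhaq, 13.3% of words occurred in Cdk5rap2 and 13.2% in Gm21178, which are not part of the sums given below. Ywhab, Ywhae and Ywhag shared 0.0895%, 0% and 0.217% of their words, so their values rest almost entirely on sequence of their own. How reads that fit several places were counted is not given in the sources used here, and the values of Ywhaz, Ywhaq, Ywhah and Sfn are therefore uncertain as values of single genes.

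The copy that shares most words with Ywhaz is Gm4202, and its value was 13.1% of that of Ywhaz. Gm4202 had 1523, 1580.5 and 1652 (lowest, median and highest) in Tecpr2 ki/ki mice and 1608, 1677.5 and 1732 in wt/wt mice. In 7 of 8 Tecpr2 ki/ki mice the value was below all wt/wt mice, and the log2 difference was -0.079 ± 0.024 (SE). The next copy, Gm14287, had 665 to 749 and 706 to 791, with a log2 difference of -0.10 ± 0.033 (SE). Both copies lay on the same side as Ywhaz, and since they can share its reads they are not a separate measurement. Summed with both, Ywhaz had a log2 difference of -0.047 ± 0.013 (SE from the variances of the 2 groups, not from limma).

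Ywhaq has a copy with a larger part of its value. Gm2423 had 631 to 744 in Tecpr2 ki/ki and 679 to 789 in wt/wt mice, 26.8% of the value of Ywhaq, with a log2 difference of -0.11 ± 0.035 (SE). Of the pseudogenes named after Ywhaq, Ywhaq-ps3 had means of 87.4 ± 7.13 and 94.4 ± 8.68 (SD, n = 8), and single values ran in Ywhaq-ps1 from 3 to 12 and 5 to 15 and in Ywhaq-ps2 from 7 to 16 and 5 to 15. These 3 overlapped between genotypes. Summed with Gm2423 and Ywhaq-ps3, Ywhaq had a log2 difference of -0.058 ± 0.020 (SE from the variances of the 2 groups, not from limma). The copy of Ywhah, Gm12428, had 465 to 664 and 510 to 584, and its log2 difference was 0.000049 ± 0.055 (SE). The means were thus nearly equal, but 4 of 8 Tecpr2 ki/ki mice lay below all wt/wt mice. The SD of Gm12428 was 65.9 in Tecpr2 ki/ki and 25.3 in wt/wt mice. The copies that share most words with Sfn, Gm7850 and Gm5279, had values of 0 to 2 in Tecpr2 ki/ki and 0 to 1 in wt/wt mice, so little was counted there.

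**Figure D2:**
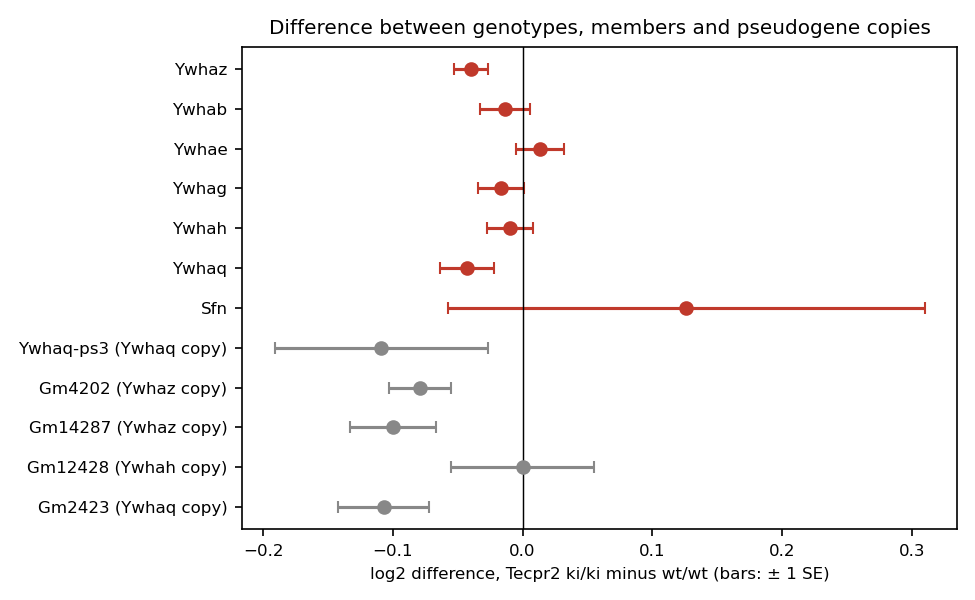
Log2 difference between 8 Tecpr2 ki/ki and 8 wt/wt mice (horizontal axis, values below 0 are lower in Tecpr2 ki/ki) for the 7 members (red) and the pseudogene copies that share most sequence with Ywhaz, Ywhaq and Ywhah (grey), with bars of ± 1 SE from limma. Ywhaz lies at -0.040 and Ywhaq at -0.043, their copies lie further to the left between -0.079 and -0.11, and Sfn has the widest bar.

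Levels can be compared between members only per length. Per kilobase of exon (all exons of the gene joined, mean ± SD over 16 mice), Ywhaz had 3006 ± 67.8, Ywhae 2259 ± 68.6 and Ywhag 1908 ± 57.4 normalized values. They were followed by Ywhah with 1519 ± 40.8, Ywhab with 1168 ± 34.3 and Ywhaq with 861 ± 24.1. Sfn, at 10.9 ± 2.53, was far below the others. Every member was above the next in 16 of 16 mice and no neighbouring ranges overlapped. Each of the 6 steps had an exact two-sided sign-flip permutation p of 3.05e-05, the smallest that 16 mice can give, and the same value after Benjamini-Hochberg adjustment over the 6 steps. The order was taken from the same values, and the flips hold the lengths fixed, so this p does not cover the choice of length.

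The steps between neighbours were 0.41 (log2 ratio) from Ywhaz to Ywhae, 0.24 from Ywhae to Ywhag, 0.33 from Ywhag to Ywhah, 0.38 from Ywhah to Ywhab, 0.44 from Ywhab to Ywhaq and 6.34 from Ywhaq to Sfn. The order in the middle depended on the length used. With the longest annotated transcript, Ywhag (2982) came before Ywhae (2762), and with the transcript that has the longest coding sequence, Ywhah (3193) came before Ywhag (2982) and Ywhae (2762). The reversed steps had the same exact sign-flip permutation p of 3.05e-05, so that p does not decide the order in the middle. Ywhaz stayed first, and Ywhab, Ywhaq and Sfn stayed last in this order, under all 3 lengths. These levels leave out the pseudogene copies, and Gm2423 had 26.8% of the value of Ywhaq. With the longest transcript Ywhab (1311) was close to Ywhaq (1200). How adding the copies would change that step was not tested. By the value without length, Ywhaz ranked 68 and Ywhag 87 among 55404 genes, and Sfn ranked 17661.

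**Figure D3:**
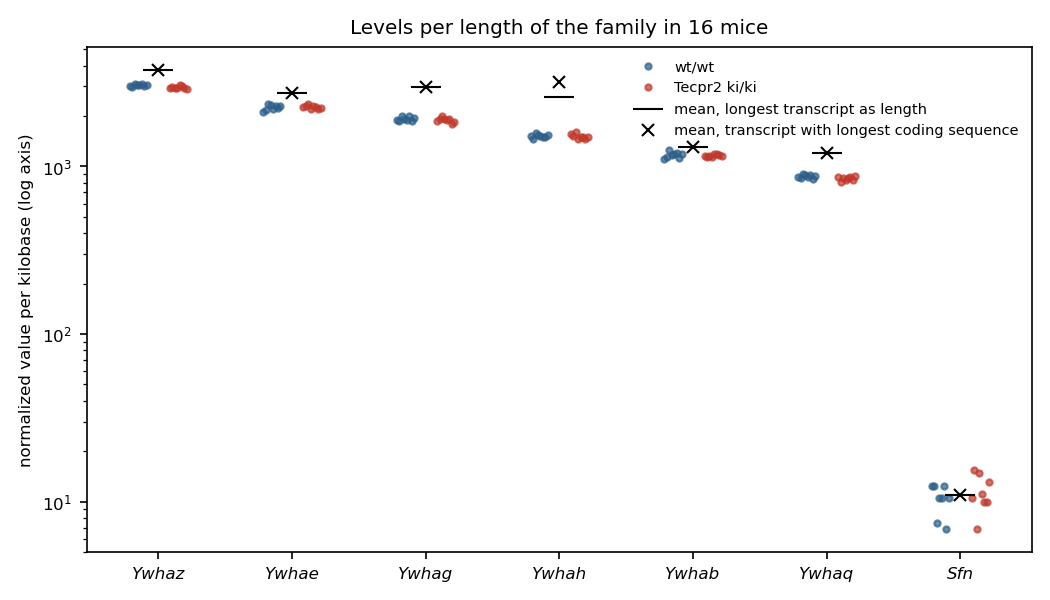
Normalized value per kilobase of exon (vertical log axis) of the 7 members in 8 wt/wt (blue) and 8 Tecpr2 ki/ki mice (red), with the mean over all mice for the longest transcript (black line) and for the transcript with the longest coding sequence (cross). Ywhaz is highest at 3006, Ywhaq is the lowest of the 6 high members at 861, and Sfn is at 10.9.

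The members were also compared across mice, to see whether a mouse with more RNA of 1 member had more of the others. Each value was taken as its deviation from the mean of its genotype, so that the contrast that chose the family was removed, and 21 pairs were computed over 16 mice. Among the 15 pairs without Sfn, all had a positive Pearson r, from 0.213 to 0.715 (median 0.489). The 6 pairs with Sfn lay between -0.525 and -0.0436. A count of 5 pairs had a permutation p under 0.05 for Pearson's r after Benjamini-Hochberg adjustment over 21 pairs, and 5 pairs did so for Spearman's rho.

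Ywhaz varied most closely with Ywhab, its nearest relative in sequence. The pair had r = 0.715 and rho = 0.794 with permutation p of 0.00159 and 0.00052 (adjusted 0.0213 and 0.0109), and r was 0.722 without the 2 mice farthest from the median of Ywhaz. Ywhae and Ywhag had r = 0.709 and rho = 0.744 (adjusted permutation p 0.0213 and 0.0131), and r was 0.718 without the 2 farthest mice. These 2 pairs were followed by Ywhab with Ywhaq (r = 0.647, rho = 0.626, adjusted permutation p 0.0294 and 0.0491, r = 0.564 without 2 mice) and Ywhae with Ywhah (r = 0.644, rho = 0.635, adjusted permutation p 0.0294 and 0.0491, r = 0.738 without 2 mice). Ywhag with Ywhah had r = 0.649 (adjusted permutation p 0.0294), but rho was 0.491 (adjusted permutation p 0.128). The r of this pair over 16 mice dropped to 0.355 without the 2 mice farthest from the median of Ywhag. Within genotypes the pair had r = 0.679 in Tecpr2 ki/ki and 0.61 in wt/wt mice, so r was positive in both.

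Ywhaz had r = 0.53 with Ywhag, 0.489 with Ywhae, 0.309 with Ywhaq and 0.213 with Ywhah. With Ywhag, rho of 0.662 had an adjusted permutation p of 0.0463, whereas r had 0.0972. Within the 8 wt/wt mice all 15 pairs were positive, between 0.574 and 0.918. Within the 8 Tecpr2 ki/ki mice they lay between -0.366 and 0.826, and 8 of 15 were positive. In Tecpr2 ki/ki mice, Ywhae, Ywhag and Ywhah went together while Ywhaz went with Ywhab, and the difference between genotypes was not tested. When all libraries were scaled to the same total, 0 of 21 pairs had an adjusted permutation p under 0.05, and r of Ywhaz with Ywhab was 0.645, so the number of pairs depended on how libraries were scaled.

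**Figure D4:**
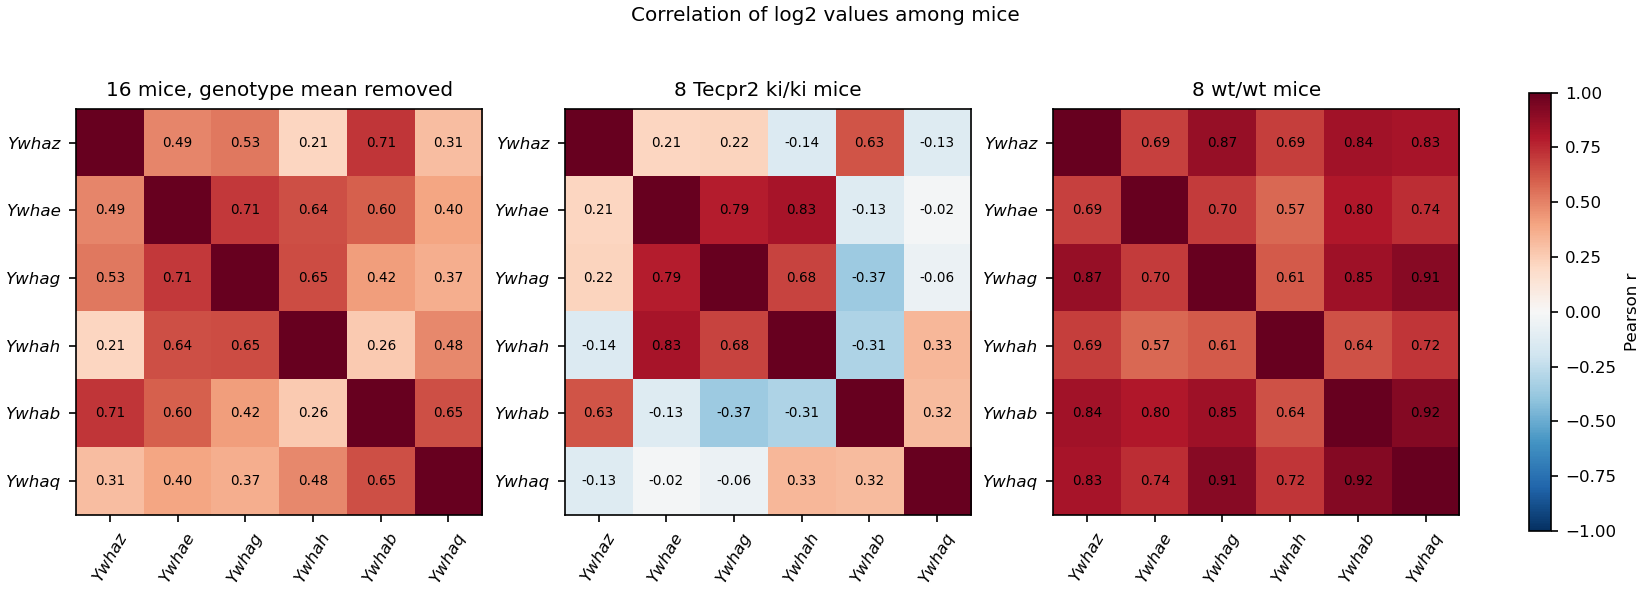
Pearson r (colour and number, from -1 to 1) between log2 values of the 6 high members across 16 mice after removal of the genotype mean, within 8 Tecpr2 ki/ki mice and within 8 wt/wt mice. All pairs are positive in the wt/wt panel (0.574 to 0.918), and in the Tecpr2 ki/ki panel they range from -0.366 to 0.826.

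Among the 11240 genes with a mean value of at least 100, the 5 whose deviations followed those of Ywhaz most closely over the 16 mice were 2900097C17Rik (r = 0.887), Ube2k (r = 0.878), Ghitm (r = 0.855), Ero1lb (r = 0.841) and Usp37 (r = 0.833). Ube2k encodes a ubiquitin-conjugating enzyme, Ghitm a protein of the inner mitochondrial membrane, Ero1lb an oxidase of the endoplasmic reticulum, and Usp37 a deubiquitinase. Ywhab ranked 55 in this list, Ywhag 548, Ywhae 744, Ywhaq 2285 and Ywhah 3458. Over all 11240 genes the median r was 0.0569, with a 5th and 95th percentile of -0.433 and 0.523. These values share libraries and are given as a description.

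Genes around the family were counted by role: kinases that phosphorylate 14-3-3 sites, clients, which are the proteins bound, and phosphatases that remove the phosphate. Of 94 such genes 92 were fitted, and 0 of them had an adjusted p under 0.1 (limma, Benjamini-Hochberg), while 1 was higher and 2 were lower at an unadjusted p under 0.01 and 1 and 5 at an unadjusted p under 0.05. The corresponding shares over all genes were 0.133% at the adjusted threshold, 0.856% higher and 0.701% lower at 0.01, and 3.07% higher and 3.01% lower at 0.05.

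Of 26 kinases, 14 had a log2 difference above 0 and 12 below, with a median of 0.0059. Camk4, a calcium and calmodulin dependent kinase of neuronal nuclei, had 1270 to 1373 (median 1289.5) in Tecpr2 ki/ki and 1338 to 1453 (median 1395.5) in wt/wt mice. In 7 of 8 Tecpr2 ki/ki mice it lay below all wt/wt mice, and the log2 difference was -0.099 ± 0.026 (SE, limma adjusted p = 0.135, Benjamini-Hochberg). Without Tecpr2 ki/ki replicate 7 the limma adjusted p (Benjamini-Hochberg) was 0.0798, and without wt/wt replicate 6 it was 0.0953. Leaving out any other single mouse gave 0.14 (Tecpr2 ki/ki replicate 8) to 0.351 (wt/wt replicate 8). The limma adjusted p was 0.262 without the filter on low values and 0.456 without trend and robust estimates. Rps6ka1, a ribosomal S6 kinase of the ERK pathway, had 318 to 390 (median 339) and 281 to 344 (median 308.5), with a log2 difference of 0.15 ± 0.047 (SE, limma adjusted p = 0.472, Benjamini-Hochberg). Its groups overlapped, with 2 Tecpr2 ki/ki mice above all wt/wt mice.

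Of 30 clients in signalling and apoptosis, such as FOXO factors, BAD and the class IIa histone deacetylases, 18 were above 0 and 12 below, with a median of 0.012. Hdac9, a histone deacetylase that 14-3-3 proteins hold in the cytoplasm, had 669 to 776 in Tecpr2 ki/ki and 720 to 795 in wt/wt mice, with a log2 difference of -0.097 ± 0.033 (SE, limma adjusted p = 0.513, Benjamini-Hochberg). In this gene, 5 Tecpr2 ki/ki mice lay below all wt/wt mice. Of 24 neuronal and cytoskeletal clients, 14 were above 0 and 10 below. The one with the smallest p was Tph2, the brain form of tryptophan hydroxylase, an enzyme that gave the family its gene symbols, with 45 to 74 and 52 to 73 and a log2 difference of -0.19 ± 0.10 (SE, limma adjusted p = 0.875, Benjamini-Hochberg).

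Of 12 phosphatase subunits, 2 had a log2 difference above 0 and 10 below, with a median of -0.028. Ppp2ca, the catalytic subunit of protein phosphatase 2A, had 2567 to 2838 and 2675 to 2922, with a log2 difference of -0.057 ± 0.022 (SE, limma adjusted p = 0.658, Benjamini-Hochberg). The groups overlapped and no subunit passed the test. For genes with a mean value of at least 2000 the median was -0.011, and for all genes fitted it was -0.00098.

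**Figure D5:**
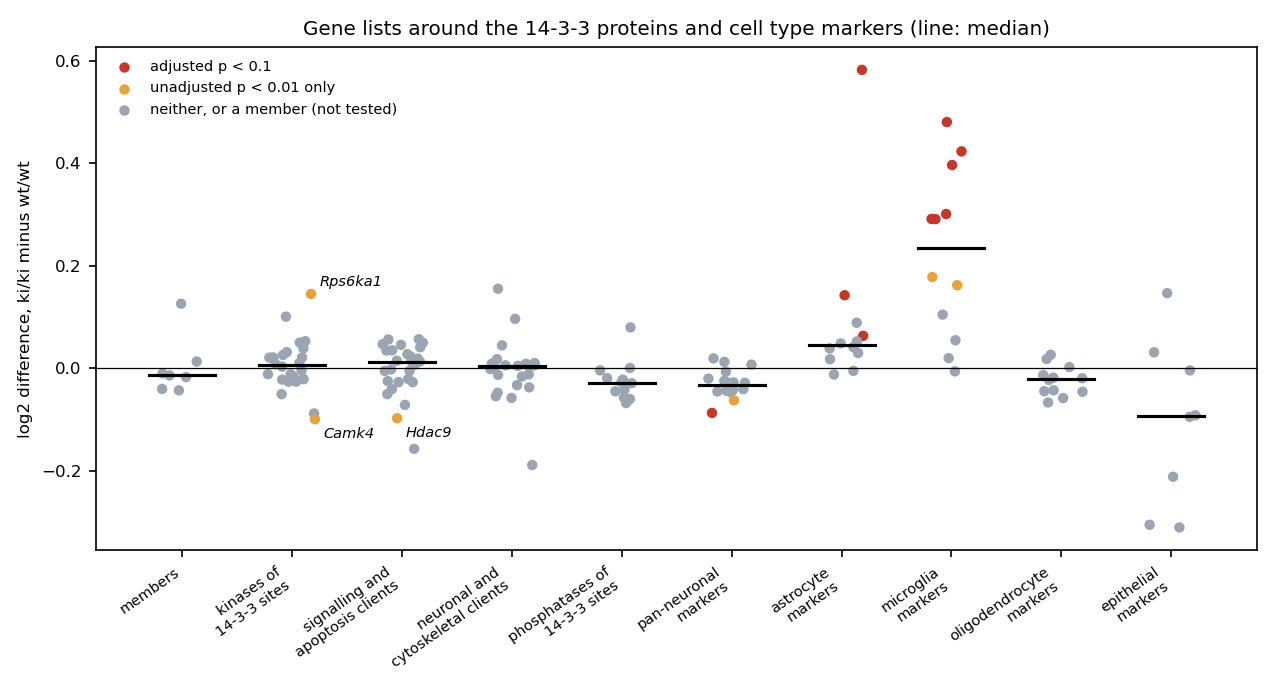
Log2 difference between Tecpr2 ki/ki and wt/wt brains (vertical axis) of each fitted gene of the family, of its kinases, clients and phosphatases and of the cell type markers, with the median of each list as a line. Red points have an adjusted p under 0.1 and orange points an unadjusted p under 0.01 only, and members are grey since they were not tested. Kinases and clients have medians near 0 (0.0059 and 0.012 for the first 2 lists), and microglia markers have a median of 0.23.

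Most microglia markers and some astrocyte markers were higher in Tecpr2 ki/ki mice in the same libraries. Of 12 microglia markers 6 rose at an adjusted p under 0.1 (limma, Benjamini-Hochberg), beside 0.0946% of all genes, and the sum of all 12 was 3389 to 3616 in Tecpr2 ki/ki and 2869 to 3226 in wt/wt mice, without overlap. The marker lists were chosen with earlier results of these data known. The authors had reported C1qa, C1qb, C1qc, Trem2 and Gfap as upregulated in these brains, so the counts of glial markers are a description. Of 12 astrocyte markers 3 rose (Gfap, Aqp4 and Slc1a2), and the sum was 71853 to 74558 and 68186 to 71991. The log2 difference was below 0 in 11739 of 23244 genes fitted and in 722 of 1066 with a mean value of at least 2000. Of 18 pan-neuronal markers 15 had a log2 difference below 0, with a median of -0.033. In that list, Gad1, an enzyme of GABA synthesis that marks GABAergic neurons and not all neurons, fell at an adjusted p under 0.1 (log2 difference -0.087, limma adjusted p = 0.0681, Benjamini-Hochberg), beside 0.0387% of all genes, a call that was lost when any of 9 single mice was left out (limma adjusted p 0.106 to 0.326). The neuronal sums overlapped, with 87906 to 91096 (median 89203.5) and 88197 to 93998 (median 91263). Oligodendrocyte markers had 0 of 12 at an adjusted p under 0.1 and 0 at an unadjusted p under 0.05 in limma, and their sums were 49807 to 55976 and 50111 to 55774. The part of these shifts in the values of Ywhaz and Ywhaq was not tested.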

How the data were processed

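Whole brain RNA of 16 mice (8 per genotype, grouped by the sample labels) was sequenced by the authors as paired-end stranded total RNA libraries. According to the methods and the submitters' processing notes, reads were trimmed with Trim Galore 0.6.10 and cutadapt 3.4, aligned to GRCm39 with STAR 2.7.10b and counted per gene with summarizeOverlaps, and genes were tested with DESeq2 1.40.2. For each mouse, the authors deposited 1 score per gene, a normalized value rounded to a whole number, and the normalization is not given in the sources used here. The table of all mice and the single tables were identical for 16 of 16 mice. DESeq2 was not run here, because it needs counts.

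Genes with a sum over 16 and a value over 5 in at least 4 mice of a genotype were fitted with limma 3.58.1 (R 4.3.3) on log2(value + 1), with trend and robust estimates, genotype as the only term, and Benjamini-Hochberg adjustment over 23244 genes. Thresholds were an adjusted p of 0.1 and an unadjusted p of 0.01. The fit was tested on simulated data, where it recovered 95 of 100 genes changed by 0.3 (log2), 100 of 100 changed by 0.6, and called 31 of 23044 unchanged genes. Only genes with means well above that of Sfn were changed, and no change as small as that of Ywhaz was simulated. The recovery therefore does not cover those cases. The read depths come from the steps between low values, with a largest error of 0.0008 for 4 simulated factors. Depth and the number of mice limit the precision, and limma p-values set the difference between genotypes against the spread between mice.

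Symbols (52017 of 55404 genes), positions and transcripts came from GENCODE for GRCm38. Python 3.11.15, numpy 2.4.6, pandas 2.3.3, scipy 1.17.1, Biopython 1.88 and matplotlib 3.10.9 were used. Members, partner lists and marker lists were chosen with earlier results of these data known. Genes were named by a rule: Tecpr2, the members, pseudogenes with a member's symbol, the 5 genes most like Ywhaz, and, in each list, those at an adjusted p under 0.1 (for partners an unadjusted p under 0.01), otherwise the one with the smallest p. The pseudogene copies were picked by shared sequence after the values had been seen. Alternatives were other pseudocounts, filters, scalings, lengths and word lengths, limma without trend and robust estimates, a replicate block, and leaving out each mouse. Sums of members with their pseudogene copies were added as an unplanned alternative.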

Additional observations from a re-analysis of the deposited data

How the results depend on the processing

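The log2 difference of Ywhaz chose the family, so its sign in these settings is a description and not a test. It ran from -0.0468 to -0.0352 when single mice were left out. With the same total it was -0.0361 and with the median ratio -0.0397. The other pseudocount and filter, limma without trend and robust estimates, and the replicate block all left it at -0.04. Summed with its copies Gm4202 and Gm14287, Ywhaz had -0.0473. Ywhab turned to 0.000398 without wt/wt replicate 3. The 31 genes with an adjusted p under 0.1 became 20 without the filter on low values, 16 without trend and robust estimates, and 25 to 40 with single mice left out; the cause was not tested. The 3 kinases, clients and phosphatases with an unadjusted p under 0.01 became 1 to 4, with 1 when wt/wt replicate 7 was left out, and 0 to 1 of them reached an adjusted p under 0.1. Gad1 lost its limma adjusted p under 0.1 (Benjamini-Hochberg) without the filter (0.114), without trend and robust estimates (0.735), and without Tecpr2 ki/ki replicates 2, 3, 4, 5 or 7 or wt/wt replicates 3, 4, 6 or 8 (0.106 to 0.326). Each of the other 2 lengths put 2 members at another rank. The 5 correlated pairs became 0 when libraries were scaled to the same total, and 2 with the replicate block.

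Whether replicate numbers pair the mice is not given in the labels, and the values below do not settle it. Over 13765 genes the deviations of same-numbered mice correlated between -0.0393 and 0.149, 1 of 8 pairs exceeded 0.1, and 3 of 8 mice correlated best with their own number. With the replicate block, 46 genes had an adjusted p under 0.1, beside 31 without it, and Ywhaz had -0.040 ± 0.012 (SE). Words of 100 instead of 31 bases lowered the share found in other genes to 12.4% for Ywhaz, 16.9% for Ywhaq, 3.11% for Ywhah and 4.03% for Sfn, and to 0% for Ywhab and Ywhag. Rounding to whole numbers limits the values of Sfn and of the low pseudogenes.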
